A study of Mus musculus with 12 samples.

Results

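Genes that bring fatty acids and ketone-related fuels into oxidation were followed in the inflamed mouse colon. They are Cpt1a, Acadm, Acadl, Acsm3, Pdk4, Ppara, Slc16a1 and Angptl4, 8 genes taken by symbol from a table of 55335 genes. RNA came from whole colon of wild-type mice with colitis, in 4 groups of 3 libraries: DSS with thymopentin, DSS with normal saline, TNBS with thymopentin and TNBS with normal saline. DSS (dextran sulfate sodium) is a polymer that injures the colon epithelium, TNBS (trinitrobenzene sulfonic acid) is a hapten that T cells respond to, and thymopentin is a synthetic pentapeptide modelled on the thymic protein thymopoietin. All groups carried colitis, so none shows the healthy colon. The labels used here give no strain, age, sex, dose or times, nor do they state that each library came from its own mouse, so p-values measure only the spread between these libraries.

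The colonocyte draws much of its energy from butyrate and other short-chain fatty acids that bacteria release into the lumen. Slc16a1, the monocarboxylate carrier MCT1, takes them up together with lactate and ketone bodies, and mitochondrial acyl-CoA synthetases such as Acsm3 activate short and medium chains. Long chains enter mitochondria through the carnitine shuttle, whose rate-setting enzyme is Cpt1a, and the acyl-CoA dehydrogenases Acadl and Acadm take the opening step of beta-oxidation on long and medium chains. Pdk4 switches off pyruvate dehydrogenase and so favours fat over glucose as fuel. Ppara, a nuclear receptor that binds fatty acids, activates many of these genes, and Angptl4, a secreted inhibitor of lipoprotein lipase, is a common PPAR target.

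The values are FPKM, fragments scaled to transcript length and library size, so levels can be compared between genes. Each gene was tested on log2(FPKM + 1) with limma over the 13794 genes with a mean of at least 1 FPKM, and was called at an adjusted p under 0.05. Of the 8 genes, 6 passed this filter, and Ppara and Angptl4 lay below it. Summed FPKM ran from 384431 to 532510 per library. The sums followed the groups, at 484974 to 532510 in DSS saline, 446364 to 475600 in DSS thymopentin and 384431 to 417581 in TNBS libraries. Epithelial markers were abundant in every library, with Epcam at 496 to 873 FPKM, and absorptive colonocyte markers such as Car4 and Aqp8 were present at 216 to 833 and 173 to 509 FPKM. Smooth muscle markers were also high, at 756 to 3434 FPKM summed over 8 genes, so the tissue was colon wall rather than isolated colonocytes. In such bulk tissue fewer cells of a type and less RNA per cell cannot be told apart. The library TNBS saline 3 stood apart: its level of Hoxb13, a homeobox gene that marks the distal colon, was 0.722 FPKM, against 49.4 to 122 FPKM in the other 11 libraries.

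The promoters of the 4 genes that passed the test in DSS colitis are shown because 3 of these genes rose and 1 fell with thymopentin. Each stretch is the 250 bases before the start of the gene in RefSeq (GRCm38.p6), written 5′ to 3′ on the gene's strand, with matches to any of 4 motifs in capitals. The motifs were AGGTCA, the half-site of PPAR, HNF4 and related nuclear receptors, AGGTCANAGGTCA, its direct repeat with a spacer of any base, CAAAGTCCA, an HNF4 core, and CACGTG, the E-box of MYC and ChREBP family factors. Both strands were read, so TGACCT marks AGGTCA on the opposite strand, and the half-site lies within the direct repeat.
Acsm3, chr7:119760673-119760922, plus strand: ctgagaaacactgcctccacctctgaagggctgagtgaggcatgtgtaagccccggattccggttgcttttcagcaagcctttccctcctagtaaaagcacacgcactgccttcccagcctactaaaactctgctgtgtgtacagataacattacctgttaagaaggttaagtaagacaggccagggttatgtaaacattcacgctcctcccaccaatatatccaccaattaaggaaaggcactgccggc
Slc16a1, chr3:104638414-104638663, plus strand: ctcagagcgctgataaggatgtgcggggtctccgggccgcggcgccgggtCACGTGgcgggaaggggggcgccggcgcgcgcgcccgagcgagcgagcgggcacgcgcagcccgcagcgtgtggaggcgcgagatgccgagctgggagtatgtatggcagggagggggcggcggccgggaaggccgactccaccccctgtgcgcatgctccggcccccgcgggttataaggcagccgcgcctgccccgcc
Acadm, chr3:153944644-153944893, minus strand: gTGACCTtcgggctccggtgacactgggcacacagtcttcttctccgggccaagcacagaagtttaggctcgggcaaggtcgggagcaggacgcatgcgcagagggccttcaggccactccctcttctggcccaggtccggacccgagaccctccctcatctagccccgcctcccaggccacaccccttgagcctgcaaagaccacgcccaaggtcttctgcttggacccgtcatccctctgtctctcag
Acadl, chr1:66863310-66863559, minus strand: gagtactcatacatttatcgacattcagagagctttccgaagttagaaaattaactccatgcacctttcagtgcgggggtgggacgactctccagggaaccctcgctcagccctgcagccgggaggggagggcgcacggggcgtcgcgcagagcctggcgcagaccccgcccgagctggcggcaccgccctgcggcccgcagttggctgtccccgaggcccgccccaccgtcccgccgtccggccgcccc

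Of the 8 genes, 7 had an entry in this promoter table, and Angptl4 is named only. The half-site was found in 2 of the 7, Acadm and Cpt1a, 249 and 94 bases before the start, and in 14% of all 32851 promoters. The E-box was found in Slc16a1, 200 bases before the start, and in 6.02% of all promoters. Neither the direct repeat, present in 0.0335% of all promoters, nor the HNF4 core, present in 0.384%, was found in any of the 7. The base composition also differed. Slc16a1 held 37 CG dinucleotides, Ppara 27, Acadl 25, Cpt1a 14 and Acadm 12, against a median of 6 over all promoters. Pdk4 held 6 and Acsm3 5. None of the 4 motifs was found in more than 1 of the 3 genes that rose in DSS colitis.

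In DSS colitis with thymopentin, Acsm3, Slc16a1 and Acadm rose, and Acadl fell. These calls, 3 higher and 1 lower, covered 4 of the 6 tested members, where 17% of all tested genes were called. By direction, 12.7% of all genes were called higher and 4.3% lower. The median of the 6 log2 fold changes was 0.45, beside 0.12 over all tested genes. Cpt1a and Pdk4 did not pass. In all 6 members the libraries of the DSS groups did not overlap, which held for 39.8% of all tested genes.

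**Figure D1:**
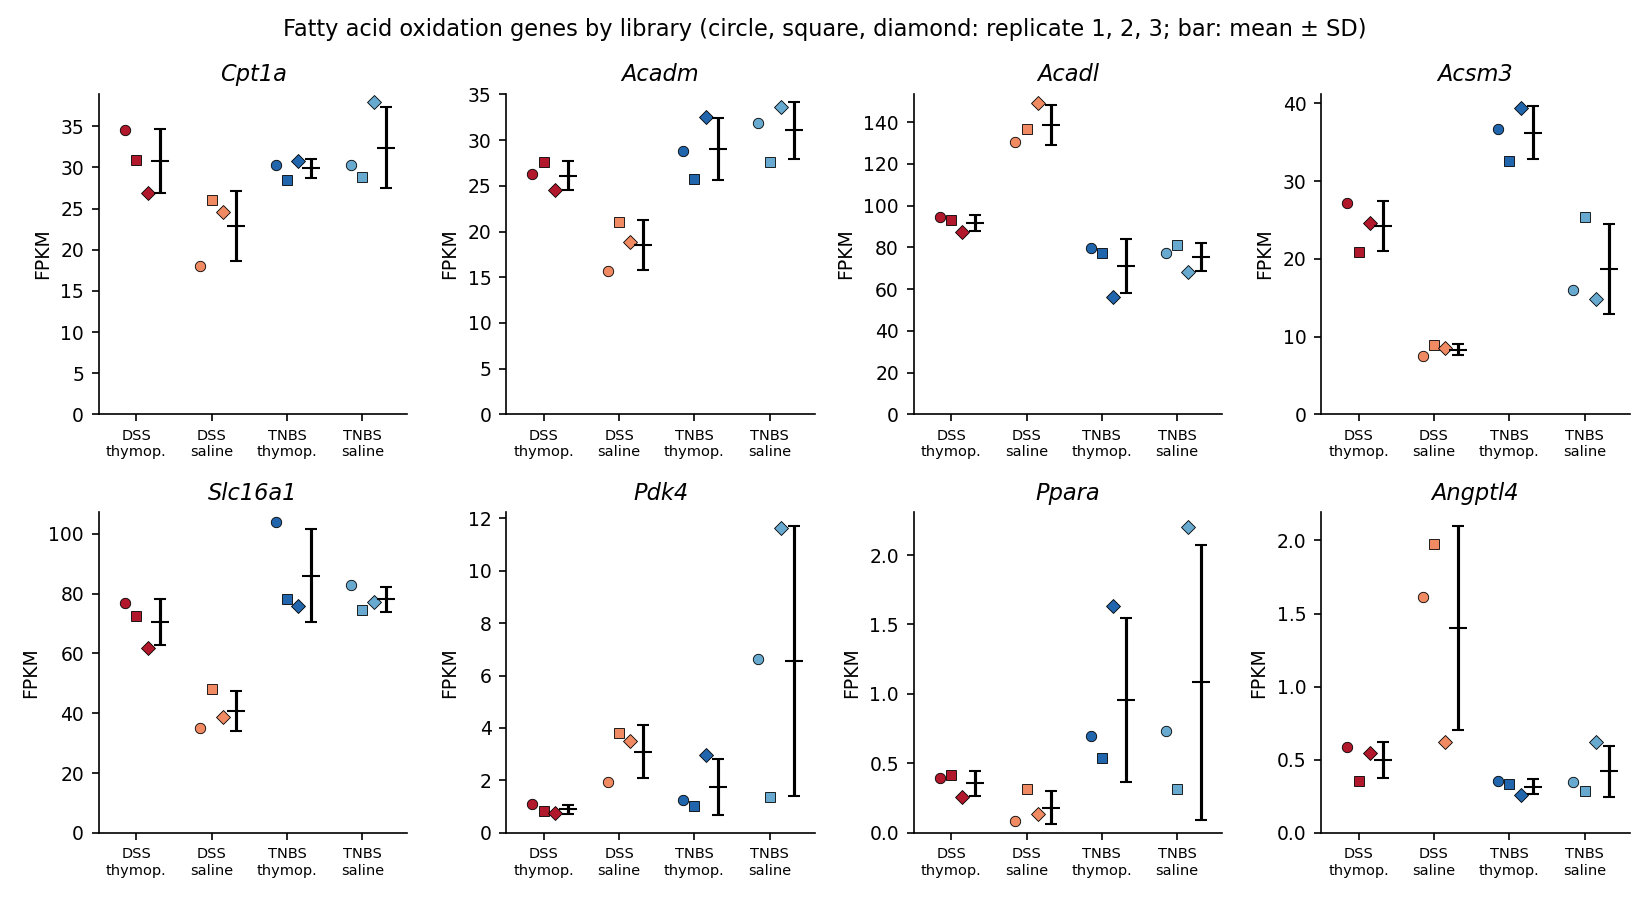
FPKM of each of the 8 genes in each library, by group, with the mean ± SD of 3 libraries as a black bar. Acsm3 in the DSS thymopentin libraries sits between 20.9 and 27.2 FPKM, above all DSS saline libraries at 7.54 to 8.87 FPKM, while Pdk4 and Ppara spread widely within both TNBS groups.

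Acsm3, which activates butyrate and medium-chain acids in the mitochondrial matrix, had 27.2, 20.9 and 24.6 FPKM in DSS thymopentin libraries, against 7.54, 8.87 and 8.48 FPKM in DSS saline libraries. The groups lay far apart, and the mean was 2.92 times that of saline. Its log2 fold change was 1.44 ± 0.18 (SE; limma adjusted p = 0.00149), or 1.32 above the median of all genes. Reads recovered from the authors' deposited table for this gene numbered 3318 to 5130 in DSS thymopentin libraries and 1548 to 1689 in DSS saline libraries, so counting error was small. The authors' deposited table gives it a log2 fold change of 1.41.

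Slc16a1, the carrier of butyrate, lactate and ketone bodies, had 76.9, 72.6 and 61.9 FPKM in DSS thymopentin libraries and 35.2, 48.2 and 38.7 FPKM in DSS saline libraries. Again no library of the treated mice fell within the saline range. The log2 fold change was 0.78 ± 0.15 (SE; limma adjusted p = 0.00827), which was kept under every alternative run. Slc5a8, the sodium-coupled carrier of the same short-chain acids, moved with it, at 51.0 ± 7.71 FPKM in DSS thymopentin libraries and 26.3 ± 1.69 FPKM in DSS saline libraries (SD, n = 3 each). On the log2 scale Slc5a8 was higher by 0.92 ± 0.15 (SE; limma adjusted p = 0.0045).

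Acadm, the medium-chain acyl-CoA dehydrogenase, had 26.3, 27.6 and 24.5 FPKM in DSS thymopentin libraries and 15.7, 21.1 and 18.9 FPKM in DSS saline libraries. The groups did not overlap, and the log2 fold change was 0.48 ± 0.12 (SE; limma adjusted p = 0.0279). This was the least secure of the 4 calls: relative to the median of all genes the change was 0.36, and the adjusted p became 0.117 with median-ratio rescaling and 0.0933 with quantile normalization. Leaving out DSS thymopentin 1, 2 or 3, or DSS saline 1 or 3, also ended it, with adjusted p-values of 0.0591, 0.0918, 0.0507, 0.0808 and 0.0719.

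Acadl, the long-chain acyl-CoA dehydrogenase, was the most abundant of the 8 genes in DSS colons and moved the other way. It had 94.7, 93.2 and 87.3 FPKM in DSS thymopentin libraries, against 130, 137 and 149 FPKM in DSS saline libraries. The log2 fold change was -0.59 ± 0.13 (SE; limma adjusted p = 0.0159), and without DSS thymopentin 3 or DSS saline 3 the adjusted p was 0.0515 and 0.0628. Smooth muscle markers ran the same way: their sum over 8 genes was 1253 to 1905 FPKM in DSS thymopentin libraries and 2891 to 3434 FPKM in DSS saline libraries, none of the 8 was at 0, and 5 were called lower. That count was 0 without DSS thymopentin 2 or 3, or DSS saline 1 or 3. The part of muscle in the fall of Acadl was not tested.

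Cpt1a, the gatekeeper of long-chain import, had 34.6, 30.9 and 26.8 FPKM in DSS thymopentin libraries and 18.02, 26.1 and 24.5 FPKM in DSS saline libraries. The groups came close without overlapping, and the log2 fold change of 0.42 ± 0.15 did not pass (SE; limma adjusted p = 0.077; 95% interval 0.09 to 0.76). Of 9 epithelial markers 2 were called higher, the adhesion proteins Epcam and Cdh1 with log2 fold changes of 0.44 and 0.39, and the median of the 9 was 0.13, beside 0.12 over all tested genes. Both calls ended without DSS thymopentin 1 or 2 or DSS saline 1. The summed epithelial markers were 5570 to 6403 FPKM in DSS thymopentin libraries and 4903 to 6139 FPKM in DSS saline libraries, which overlap. Of 10 absorptive colonocyte markers none was called by limma, 1, Guca2a, had an unadjusted p under 0.05 with a lower value, and their median was -0.22. Markers of distal colon position summed over 5 genes to 159 to 197 FPKM in DSS thymopentin libraries. In DSS saline libraries that sum was 98.0 to 109 FPKM, so the groups did not overlap. None of the 4 tested position markers was called by limma, 3 had a positive log2 fold change, and their median was 0.55. The part of the epithelial, colonocyte and position markers in the rises of Acsm3, Slc16a1 and Acadm was not tested.

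**Figure D2:**
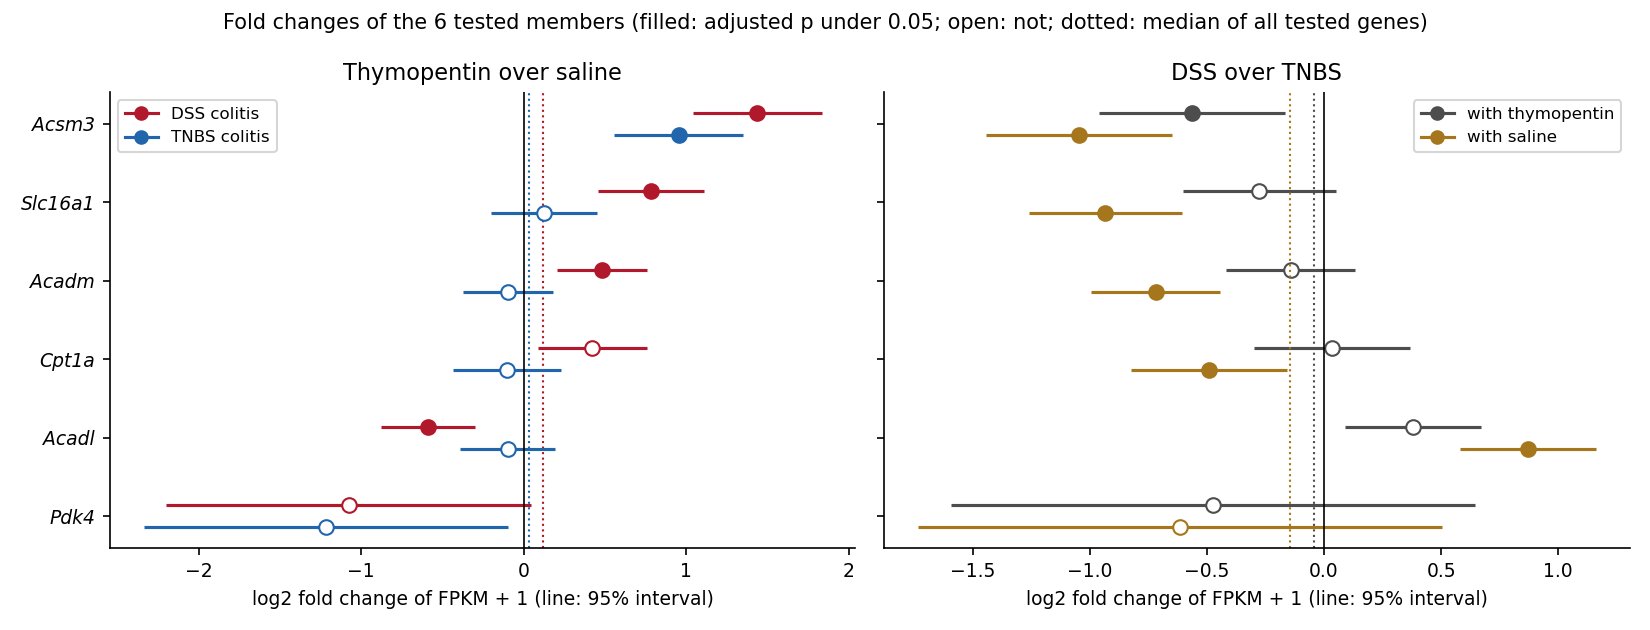
Log2 fold changes of FPKM + 1 for the 6 tested genes with 95% intervals, thymopentin over saline in each model on the left and DSS over TNBS on the right; filled points have an adjusted p under 0.05 and dotted lines mark the median of all tested genes. On the left, Acsm3 is filled in both models, at 1.44 in DSS and 0.95 in TNBS, and Acadl lies left of 0 in DSS at -0.59.

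Pdk4, the kinase that blocks pyruvate oxidation, was low in DSS colons but separated the DSS groups. It had 1.09, 0.829 and 0.773 FPKM in DSS thymopentin libraries, against 1.93, 3.81 and 3.52 FPKM in DSS saline libraries. The mean was 0.291 times that of saline, yet the log2 fold change of -1.08 ± 0.51 did not pass in the fit where all 12 libraries share a spread (SE; limma adjusted p = 0.162). With the DSS libraries fitted alone the adjusted p was 0.0249, and without TNBS saline 2 it was 0.0352. The authors' deposited table lists Pdk4 at -1.85 on the log2 scale (FDR 3.92e-10), from 95 to 147 reads in DSS thymopentin libraries and 283 to 517 reads in DSS saline libraries as recovered here.

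Angptl4, the lipase inhibitor, had 0.586, 0.354 and 0.546 FPKM in DSS thymopentin libraries and 1.61, 1.97 and 0.623 FPKM in DSS saline libraries. DSS saline 3 thus lay close to the treated libraries, and DSS saline 1 and 2 far above them. Without the filter on low values the log2 fold change was -0.64 ± 0.20 (SE; limma adjusted p = 0.0961), and the authors' deposited table gives -1.48 with an FDR of 0.000867. White adipocyte markers followed the same split in their sum. Their sum over 9 genes was 84.0 and 151 FPKM in DSS saline 1 and 2, 27.5 FPKM in DSS saline 3 and 5.79 to 23.8 FPKM in DSS thymopentin libraries. Of these markers Adipoq, the adipocyte hormone adiponectin, had 0.408, 0 and 1.97 FPKM in DSS thymopentin libraries and 5.16, 8.57 and 1.56 FPKM in DSS saline libraries. Adipoq was not called (limma adjusted p = 0.158), and 1 of the 5 tested markers, Plin4, was called lower (log2 fold change -1.03, limma adjusted p = 0.0453). That call ended without any 1 library other than TNBS saline 2 or 3. Plin4 did not follow the split, with 726, 1118 and 983 recovered reads in DSS saline 1, 2 and 3 and 220 to 439 in DSS thymopentin libraries. The part of fat tissue in the Angptl4 values was not tested.

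Ppara, the receptor itself, was nearly silent in DSS colons, at 0.396, 0.416 and 0.255 FPKM in DSS thymopentin libraries and 0.0881, 0.316 and 0.137 FPKM in DSS saline libraries. The groups overlapped, and the unfiltered log2 fold change was 0.20 ± 0.30 (SE; limma adjusted p = 0.786). The other receptors of the family were more abundant. Pparg averaged 11.1 ± 1.32 FPKM in DSS thymopentin libraries and 8.01 ± 1.54 FPKM in DSS saline libraries (SD, n = 3 each) and did not pass (log2 fold change 0.43 ± 0.22, limma adjusted p = 0.197). Ppard averaged 7.12 ± 0.695 FPKM in DSS thymopentin libraries and 3.53 ± 0.525 FPKM in DSS saline libraries (SD, n = 3 each). Ppard rose by 0.85 ± 0.11 on the log2 scale (SE; limma adjusted p = 0.00167).

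The enzymes and carriers around the members were counted in DSS colitis in the same way, where 12.7% of all tested genes were called higher and 4.3% lower. Of 10 tested acyl-CoA synthetases, 4 were called higher and none lower, with a list median of 0.27. Besides Acsm3 these were Acsl3, which activates long chains, with 35.8 ± 5.40 FPKM in DSS thymopentin libraries and 15.4 ± 0.914 FPKM in DSS saline libraries (log2 fold change 1.16 ± 0.12, limma adjusted p = 0.000773), Acss2, which activates acetate (1.06), and Slc27a2, which imports and activates very long chains (0.82). This count stayed at 4 whichever library was left out. Of 5 tested monocarboxylate transport genes, Slc16a1 and Slc5a8 were called, also whichever library was left out.

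Of the 19 mitochondrial beta-oxidation genes, 4 were called higher and 1, Acadl, lower, with a median of 0.18 that was 0.06 above that of all genes. That is 21.1% higher and 5.26% lower, beside 12.7% and 4.3% of all tested genes. The strongest rise among the called genes was of Hadh, the short-chain hydroxyacyl-CoA dehydrogenase. It had 38.7 ± 1.0 FPKM in DSS thymopentin libraries and 24.7 ± 2.31 FPKM in DSS saline libraries (SD, n = 3 each). Its log2 fold change was 0.63 ± 0.10 (SE, limma adjusted p = 0.00334). Acadm was another called rise, and the others, Eci1 and Acad9, with log2 fold changes of 0.48 and 0.37, were named after their values were seen. Acads, the short-chain acyl-CoA dehydrogenase, had a log2 fold change of 0.58 and did not pass (limma adjusted p = 0.0571). Without DSS thymopentin 2 or DSS saline 3 only 1 gene of this list was called higher.

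Smaller counts came from the remaining lists, where 12.7% of all tested genes were called higher. The shares of the carnitine shuttle (14.3%) and the peroxisomal genes (18.2%) lay near that. In the carnitine shuttle 1 of 7 tested genes was called higher, Crat, the carnitine acetyltransferase (0.73), and in the peroxisome 2 of 11, Ehhadh (0.45) and Acaa1a (0.43), enzymes of the later steps there. These calls were lost when libraries were left out: none of the carnitine genes was called without DSS thymopentin 1, 2 or 3, DSS saline 2 or 3, or TNBS saline 1, and none of the peroxisomal genes without DSS thymopentin 2 or DSS saline 3. Among 9 tested PPAR receptors and partners, 2 were called higher, Ppard and Hnf4a, a nuclear receptor of gut epithelium with 131 ± 13.3 FPKM in DSS thymopentin libraries and 76.2 ± 7.17 FPKM in DSS saline libraries (SD, n = 3 each; log2 fold change 0.77 ± 0.11, limma adjusted p = 0.00229). The count was 4 without TNBS thymopentin 2, and 2 or 3 without any other library.

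PPAR target genes were called in both directions. Of 14 tested, 2 were called higher, Acadm and Ehhadh, and 2 lower, Acadl and Creb3l3, a liver and gut transcription factor named after its values were seen (-1.05). That is 14.3% in each direction, where 12.7% of all tested genes were called higher and 4.30% lower. Their median was -0.32, beside 0.12 over all tested genes, and 5 of the 14 had a positive log2 fold change. No target was called higher without DSS thymopentin 1, 2 or 3, or DSS saline 1 or 3, and none lower without DSS thymopentin 3 or DSS saline 3. Of 13 genes around pyruvate dehydrogenase, 2 were called higher and 2 lower. Those lower were Pdp1, the phosphatase that reactivates the complex (-0.55), and Mpc2, a subunit of the pyruvate carrier (-0.25). Those higher, Pdk2 (0.61) and Pdp2 (0.73), a kinase and a phosphatase of the complex, were named after their values were seen. The higher calls were lost without DSS thymopentin 2 or 3, or DSS saline 1 or 3, and 1 lower call without any 1 library other than DSS thymopentin 1, TNBS thymopentin 2 or 3, or TNBS saline 2.

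**Figure D3:**
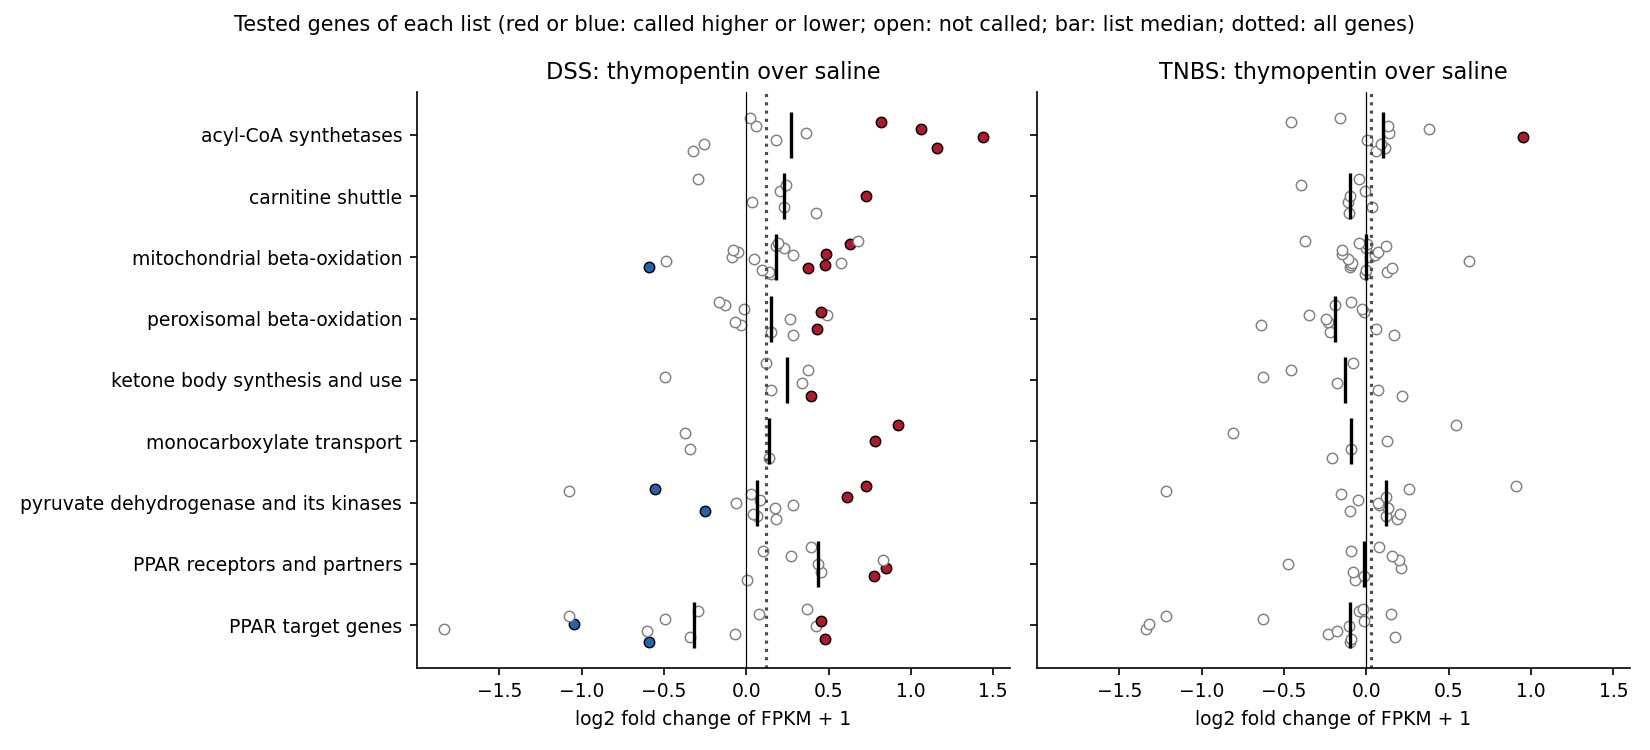
Log2 fold change of FPKM + 1 for every tested gene of 9 pathway lists, thymopentin over saline, in DSS on the left and TNBS on the right; filled points were called, black bars are list medians and dotted lines the median of all genes. In DSS the 4 called acyl-CoA synthetases lie between 0.82 and 1.44, while in TNBS Acsm3 is the only filled point.

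Of the ketone body genes, 1 of 6 was called in DSS colitis, where 17% of all tested genes were called, 12.7% higher. This was Acat1, the mitochondrial thiolase that serves both synthesis and use of ketone bodies, with 28.6 ± 2.27 FPKM in DSS thymopentin libraries and 21.5 ± 0.954 FPKM in DSS saline libraries (SD, n = 3 each; log2 fold change 0.39 ± 0.09, limma adjusted p = 0.0183). It was lost without DSS thymopentin 2 or DSS saline 1 or 3. Bdh1, the hydroxybutyrate dehydrogenase, had a log2 fold change of 0.15 and did not pass. In TNBS colitis none of the 6 was called by limma, and 1, Acat1, had an unadjusted p under 0.05, as did 12.7% of all tested genes.

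In TNBS colitis, thymopentin was followed by a call in 1 of the 6 tested members, Acsm3, where 0.667% of all tested genes were called, 0.283% higher. Acsm3 had 36.7, 32.6 and 39.4 FPKM in TNBS thymopentin libraries, against 15.9, 25.4 and 14.8 FPKM in TNBS saline libraries. The groups did not overlap, and the mean was 1.94 times that of saline. The log2 fold change was 0.95 ± 0.18 (SE; limma adjusted p = 0.0468), just inside the threshold. With the replicate numbers as a block the adjusted p was 0.128, and with the TNBS libraries fitted alone it was 0.219. The call was lost under 14 of 20 alternatives, among them leaving out any 1 library other than TNBS saline 2 (up to 0.18), while the log2 fold change stayed between 0.81 and 1.18.

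The other members gave no call in TNBS colitis. Slc16a1 had 104, 78.3 and 76.0 FPKM in TNBS thymopentin libraries and 82.8, 74.4 and 77.1 FPKM in TNBS saline libraries, overlapping groups with a log2 fold change of 0.12 (95% interval -0.20 to 0.45). Acadm averaged 29.0 ± 3.38 FPKM in TNBS thymopentin libraries and 31.1 ± 3.12 FPKM in TNBS saline libraries (SD, n = 3 each), with a log2 fold change of -0.10 (95% interval -0.37 to 0.18). Cpt1a and Acadl were likewise close, with log2 fold changes of -0.10 each and 95% intervals of -0.44 to 0.23 and -0.39 to 0.19. The direction of Slc16a1, Cpt1a and Acadl turned when TNBS thymopentin 1, TNBS saline 3 and TNBS thymopentin 3, in that order, were left out, at -0.017, 0.014 and 0.061.

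Pdk4 and Ppara varied widely between the libraries of each TNBS group. Pdk4 had 1.24, 1.04 and 2.98 FPKM in TNBS thymopentin libraries and 6.64, 1.37 and 11.6 FPKM in TNBS saline libraries. The groups overlapped (log2 fold change -1.22 ± 0.51, limma adjusted p = 0.346), and without TNBS saline 2 the adjusted p was 0.0393 with a log2 fold change of -1.90. Pdk4 was lower under thymopentin in each of the 3 same-numbered pairs, and with the replicate numbers as a block the adjusted p was 0.182. With array weights, which did not converge, it was 0.00782. Ppara had 0.697, 0.540 and 1.63 FPKM in TNBS thymopentin libraries and 0.730, 0.317 and 2.20 FPKM in TNBS saline libraries, highest in replicate 3 of both groups. Both genes were thus highest in TNBS saline 3.

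Among markers of the distal colon, Hoxb13 and Hoxd13 ran opposite to Pdk4 and Ppara in TNBS saline 3. Hoxa11 was highest in that library as they were, and Hoxa13 kept to a narrow range. Hoxd12 separated the TNBS groups as a whole, at low read numbers. Hoxb13, which marks the distal end, had 89.8, 87.4 and 49.4 FPKM in TNBS thymopentin libraries and 50.04, 86.9 and 0.722 FPKM in TNBS saline libraries, lowest where Pdk4 and Ppara were highest. Hoxd13 was likewise listed at 0 in TNBS saline 3, against 1.55 to 4.29 FPKM in the other TNBS libraries. Hoxa13 stayed between 19.96 and 26.2 FPKM in all TNBS libraries, and Hoxa11 was highest in TNBS saline 3, at 8.01 FPKM against 1.65 to 3.37 FPKM in the others. For Hoxd12, 0, 0 and 3 reads were recovered in TNBS saline 1, 2 and 3. In TNBS thymopentin 1, 2 and 3 it had 35, 17 and 16 reads. The submitters' FDR for Hoxd12 was 0.00335, and limma did not test this gene. Fabp2, a fatty acid carrier of enterocytes, had 45.2, 61.6 and 242 FPKM in TNBS thymopentin libraries and 275, 46.7 and 454 FPKM in TNBS saline libraries. The 8 enterocyte genes of the small intestine, Fabp2 among them, summed to 89.6 to 280 FPKM in TNBS thymopentin libraries and 86.9 to 511 FPKM in TNBS saline libraries. Of them, Sis was at most 0.0449 FPKM, Lct at most 0.0445 FPKM and Apoa4 at most 0.147 FPKM in any library. Alpi, another of the 8, had 1174, 80 and 2424 reads in TNBS saline libraries, as recovered here. In TNBS thymopentin libraries Alpi had 16, 33 and 369 reads, and it was not called (log2 fold change -2.08, limma adjusted p = 0.313). In DSS colitis 1 of the 5 tested, Fabp6, was called lower (log2 fold change -2.36, limma adjusted p = 0.00976) and 1, Slc5a1, higher (0.86). The part of these markers in the Pdk4 and Ppara values was not tested. Without TNBS saline 3 the log2 fold change of Pdk4 was -0.69.

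**Figure D4:**
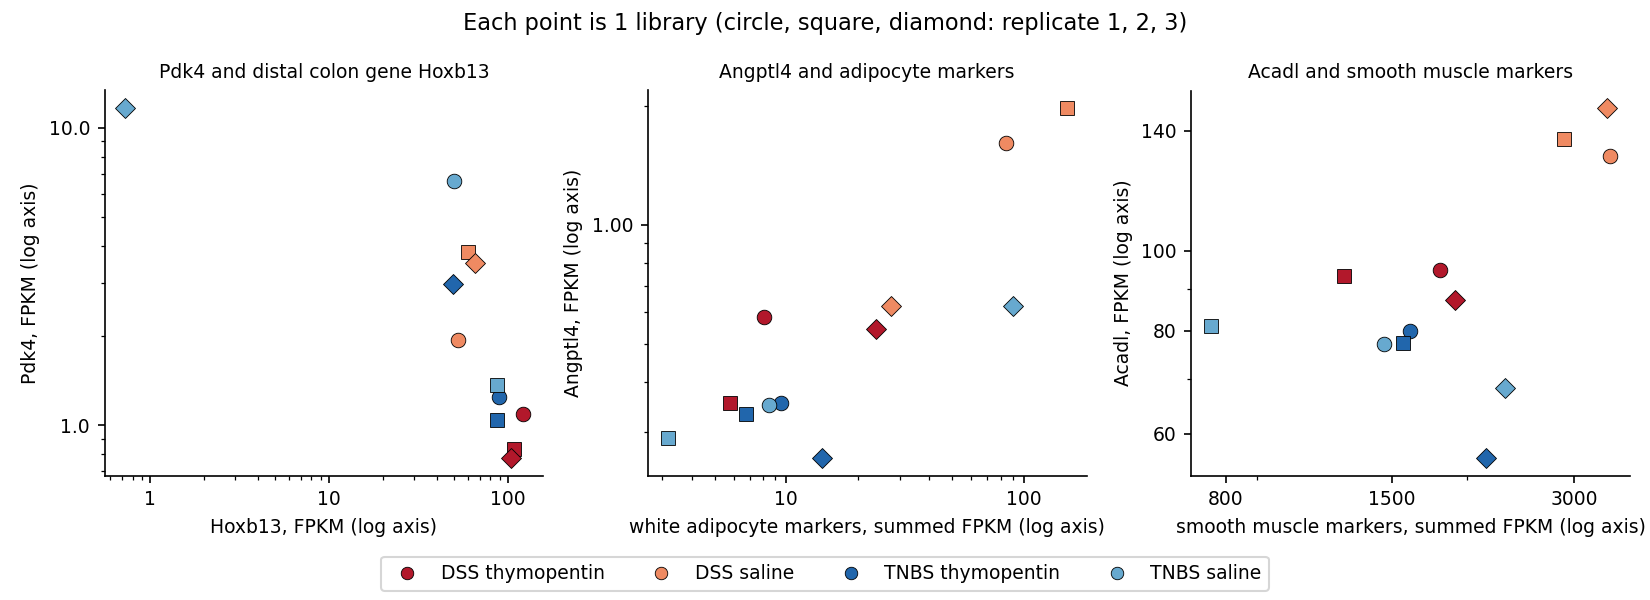
Each point is 1 library on log axes, with Pdk4 against the distal gene Hoxb13, Angptl4 against summed white adipocyte markers and Acadl against summed smooth muscle markers, all in FPKM. TNBS saline 3 stands alone at 0.722 FPKM of Hoxb13 and 11.6 FPKM of Pdk4, and the 3 DSS saline libraries hold the most Acadl (130 to 149 FPKM) and the most muscle marker RNA (2891 to 3434 FPKM).

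Angptl4 stayed under 1 FPKM in all TNBS libraries, with 0.354, 0.332 and 0.257 FPKM in TNBS thymopentin libraries and 0.349, 0.289 and 0.621 FPKM in TNBS saline libraries. The groups overlapped, and the unfiltered log2 fold change was -0.10 ± 0.20 (SE; limma adjusted p = 0.954). Its highest TNBS value was again in TNBS saline 3, the TNBS library with the most adipocyte marker RNA, at 89.9 FPKM summed against 3.17 to 14.1 FPKM in the other TNBS libraries.

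The difference between the responses of the models was tested as an interaction, DSS minus TNBS. None of the 6 members passed by limma, where 5.15% of all genes were called, although 4 had an unadjusted p under 0.05, as did 22.1% of all genes. With array weights 3 members were called. The estimates were 0.66 ± 0.21 for Slc16a1 (SE; limma adjusted p = 0.0963), 0.58 ± 0.18 for Acadm (0.0871), 0.53 ± 0.21 for Cpt1a (0.176) and -0.49 ± 0.19 for Acadl (0.15). For Acsm3 the difference was 0.48 with a 95% interval of -0.08 to 1.04, so responses of equal size and a larger one in DSS both lay within it. The call for Acadl alone was gained without TNBS thymopentin 3 (limma adjusted p = 0.0354). Other genes of these pathways did pass, among them Acsl3 with a difference of 1.05 (limma adjusted p = 0.0117) and Slc27a2 with 1.28 (limma adjusted p = 0.0101).

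Between the models, most members were lower in DSS colons that had received saline. Under saline, 5 of the 6 tested members were called between DSS and TNBS, 4 lower and 1 higher in DSS, where 46.6% of all tested genes were called, 31.5% lower and 15.2% higher. Acsm3 averaged 8.30 ± 0.686 FPKM in DSS saline libraries and 18.7 ± 5.79 FPKM in TNBS saline libraries (SD, n = 3 each; log2 fold change -1.05 ± 0.18, limma adjusted p = 0.00104). Slc16a1 averaged 40.7 ± 6.75 FPKM in DSS saline libraries and 78.1 ± 4.27 FPKM in TNBS saline libraries (log2 fold change -0.93 ± 0.15, limma adjusted p = 0.000684). Acadm stood at -0.72 (limma adjusted p = 0.00112) and Cpt1a at -0.49 (limma adjusted p = 0.0215). Only Acadl was higher in DSS, with 139 ± 9.53 FPKM in DSS saline libraries and 75.5 ± 6.60 FPKM in TNBS saline libraries (SD, n = 3 each; log2 fold change 0.87 ± 0.13, limma adjusted p = 0.000536). The Cpt1a call was lost with median-ratio rescaling (0.124), with quantile normalization (0.0737), with the saline groups fitted alone (0.065), and without DSS saline 1 or TNBS saline 3 (0.0764 and 0.0805).

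This comparison shares its DSS saline libraries with the thymopentin comparison in DSS, so the opposite signs of the values are not independent of each other. Side by side, the log2 fold changes of DSS over TNBS under saline and of thymopentin over saline in DSS were -1.05 and 1.44 for Acsm3, -0.93 and 0.78 for Slc16a1, -0.72 and 0.48 for Acadm, -0.49 and 0.42 for Cpt1a and 0.87 and -0.59 for Acadl. Smooth muscle markers summed to 2891 to 3434 FPKM in DSS saline libraries and 756 to 2311 FPKM in TNBS saline libraries, and 6 of the 8 were called higher in DSS (3 without DSS saline 1, 4 without DSS saline 2 or 3 or TNBS saline 1 or 2, and 8 without TNBS saline 3). Absorptive colonocyte markers summed to 1804 to 2741 FPKM in DSS saline libraries and 2878 to 5701 FPKM in TNBS saline libraries, and 5 of the 10 were called lower. The part of these cell types in the model difference was not tested.

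Several lists around the members held more lower than higher calls, as did all tested genes, of which 31.5% were called lower and 15.2% higher. With median-ratio rescaling that excess over all genes was absent, at 2920 lower and 3031 higher. Of 10 acyl-CoA synthetases 7 were called lower in DSS saline libraries, of 19 mitochondrial beta-oxidation genes 10 lower and 1 higher, of 11 peroxisomal genes 6 lower, of 9 receptors and partners 6 lower and of 6 ketone body genes 3 lower. Their medians were -0.86, -0.27, -0.57, -0.60 and -0.70, beside -0.14 over all genes. The carnitine shuttle had 4 lower and 1 higher of 7, monocarboxylate transport 3 lower and 1 higher of 5, pyruvate dehydrogenase and its kinases 6 lower and 2 higher of 13 and fatty acid synthesis 4 lower of 10. PPAR target genes were split, with 4 lower and 3 higher of 14 and a median of -0.22. None of 3 lipoprotein lipase regulators was called by limma or had an unadjusted p under 0.05, and their median was 0.015. Among the strongest were Acsl3 (-1.70), Slc27a2 (-1.34), Pparg, a fatty acid-binding nuclear receptor of colonocytes and fat cells (-1.34), and the peroxisomal transporter Abcd3 (-1.13). Among the low members, Angptl4 was higher in DSS without the filter (0.72 ± 0.20, limma adjusted p = 0.026), and Ppara did not pass (-0.72 ± 0.30, limma adjusted p = 0.121).

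Under thymopentin 1 of the 6 members was called between the models, lower in DSS, where 27.5% of all genes were called, 16.5% lower. Acsm3 averaged 24.2 ± 3.21 FPKM in DSS thymopentin libraries and 36.2 ± 3.43 FPKM in TNBS thymopentin libraries (SD, n = 3 each; log2 fold change -0.56 ± 0.18, limma adjusted p = 0.0397). The call was lost with the replicate block (0.0636), without the filter (0.0846), and without DSS thymopentin 2 or 3, DSS saline 3 or any 1 TNBS thymopentin library (0.0538 to 0.135). Acadl had 91.7 ± 3.93 FPKM in DSS thymopentin libraries and 71.1 ± 13.1 FPKM in TNBS thymopentin libraries and did not pass (log2 fold change 0.38 ± 0.13, limma adjusted p = 0.0534). Slc16a1, Acadm and Cpt1a gave -0.28, -0.14 and 0.04, with 95% intervals of -0.60 to 0.05, -0.42 to 0.13 and -0.30 to 0.37.

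The order of the group means differed between members. For Acsm3 it ran from TNBS thymopentin through DSS thymopentin and TNBS saline to DSS saline, and the libraries of the middle groups overlapped. For Slc16a1, Acadm and Cpt1a DSS saline was lowest and did not overlap with the group above it, while the other 3 groups overlapped from neighbour to neighbour. For Acadl DSS saline was highest, DSS thymopentin next and the TNBS groups lowest, and the overlap was between the TNBS groups only. For Pdk4 every neighbour overlapped.

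Over the 12 libraries the members fell into patterns, given as descriptions because all libraries share the 4 groups. Pearson correlations of log2(FPKM + 1) were 0.90 between Acadm and Slc16a1, 0.89 between Acadm and Cpt1a and 0.84 between Acsm3 and Slc16a1. Acadl ran opposite, at -0.89 with Acadm and -0.82 with Slc16a1. Pdk4 followed none of them, between -0.45 with Acsm3 and 0.25 with Acadm. Among all tested genes, those most like Acsm3 were Camk1d (0.98), Sema5a (0.97) and Maml3 (0.97), and those most like Slc16a1 were Kcnk5 (0.98), Acad9 (0.97) and Elf4 (0.97). Acadl was most like Cox7a2, Prdx5 and Serpina3n (0.97 each), Acadm most like Ppp2r5d, Diaph1 and Arih2 (0.97 each), Cpt1a most like Cyp3a13 (0.93), Tmem41a (0.93) and Akr1c12 (0.92), and Pdk4 most like Ncoa7 (0.96), Rap2b and Hkdc1 (0.93 each).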

How the data were processed

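RNA-seq of whole colon was deposited as FPKM for all genes and 12 libraries. Per the labels, total RNA was extracted with TRIzol and made into strand-specific TruSeq libraries. Per the submitters' processing notes, the tools were FastQC, STAR 2.5, Cuffnorm and DESeq 1.22.1 with build mm9, with no role or order given; these sources give no annotation. The authors also deposited, for 2326 genes in DSS and 1173 in TNBS, log2 values per library, log2 fold changes, p-values and FDRs. Raised back from log2, all 7326 low values (up to 30 reads) were whole multiples of a step within 0.01, which gave the reads quoted; total depth is otherwise unknown.

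FPKM are not counts, so limma 3.58.1 (R 4.3.3) tested log2(FPKM + 1), a scale that understates changes of low genes, in 1 fit of 4 group means with 8 residual degrees of freedom and an empirical Bayes trend. Tests were two-sided, and p-values were adjusted by Benjamini-Hochberg over the 13794 genes with a mean of at least 1 FPKM. Groups came from the treatment labels. Alternatives were a pseudocount of 0.1, no filter, a mean of at least 5 FPKM, other scalings, array weights, a replicate block and leaving out each library. The main tests paired no libraries, and replicate numbers entered only in the replicate block. Within each model that block joined same-numbered thymopentin and saline libraries, and between the models same-numbered libraries of all groups. Deviations of same-numbered TNBS libraries correlated at 0.124, 0.268 and 0.476. However, TNBS thymopentin 1 correlated more with TNBS saline 2 (0.287), and the labels do not explain the numbers.

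The members, lists and the naming rule were chosen with earlier results of these data known. From each pathway list up to 6 called genes with the smallest adjusted p could be named, plus Bdh1, Acads, Slc5a8, Ppard and Pparg and others not reported here, and 3 genes most like each tested member; Hoxb13, Fabp2 and other markers belong to marker lists. Python 3.11.15 with pandas, numpy and matplotlib read the tables and drew the plots.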

Additional observations from a re-analysis of the deposited data

Results flagged for a closer look

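None of the 6 tested members differed between the models in its response to thymopentin by the interaction test (limma, adjusted p under 0.05, DSS minus TNBS on the log2 scale). Across the pathway lists 10 genes did, picked out by this call, where 5.15% of all tested genes were called. Acyl-CoA synthetases had 3 of 10, PPAR receptors and partners 2 of 9, and mitochondrial beta-oxidation 1 higher and 1 lower of 19. The carnitine shuttle had 1 of 7, pyruvate dehydrogenase and its kinases 1 of 13 and fatty acid synthesis 1 of 10. None was called of 11 peroxisomal, 6 ketone body, 14 PPAR target or 5 monocarboxylate transport genes. Among the activating enzymes and carriers, Acsl3 differed by 1.05 (1.16 in DSS, 0.11 in TNBS; adjusted p = 0.0117), Slc27a2 by 1.28 (0.82 in DSS, -0.46 in TNBS; adjusted p = 0.0101), Acss2 by 0.69 (1.06 in DSS, 0.38 in TNBS; adjusted p = 0.0484) and the carnitine carrier Slc22a5 by 0.64 (0.24 in DSS, -0.40 in TNBS; adjusted p = 0.0374). Hadh differed by 0.63 (0.63 in DSS, 0.01 in TNBS; adjusted p = 0.0301). Among regulators, Hnf4a differed by 0.79 (0.77 in DSS, -0.01 in TNBS; adjusted p = 0.021), Ppard by 0.64 (0.85 in DSS, 0.21 in TNBS; adjusted p = 0.0432) and Mlxipl, the carbohydrate-response factor ChREBP, by 1.35 (1.56 in DSS, 0.21 in TNBS; adjusted p = 0.0178). Pdp1 differed by -0.81 (-0.55 in DSS, 0.26 in TNBS; adjusted p = 0.0179). Acadsb, a branched-chain acyl-CoA dehydrogenase named after its values were seen, differed by -1.11 (-0.49 in DSS, 0.62 in TNBS; adjusted p = 0.0493), and the call was lost under 14 of 19 alternatives. Acsl3, Slc27a2 and Mlxipl kept the call under every alternative run, while the other 6 lost it under 2 of 19 (Pdp1) to 15 of 20 (Ppard).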

How the results depend on the processing

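The calls of Acsm3 and Slc16a1 in DSS colitis were kept under all 20 alternatives; those of Acadm and Acadl were lost under 9 and 2. Genes called for thymopentin numbered 44 without a filter, 6 with the groups fitted alone and 2547 with array weights in TNBS (main 92), and 1447 at a mean of at least 5 FPKM and 4025 with array weights in DSS (main 2346). The difference gave 355 without a filter, 385 at the higher filter and 2889 with array weights (main 710), and DSS against TNBS under saline 3661 at the higher filter (main 6431). Members called in TNBS numbered 0 without a filter, with the groups fitted alone and with the replicate block, and 2 with array weights (main 1); for the difference 3 with array weights (main 0); and for DSS against TNBS under thymopentin 0 without a filter and with the replicate block, and 2 at the higher filter and with median-ratio rescaling (main 1). Array weights stopped before they converged. Leaving out 1 library gave 41 (without TNBS thymopentin 1) to 114 genes and 0 to 2 members in TNBS, 916 (without DSS saline 3) to 2524 genes and 2 to 5 members in DSS, 177 (without DSS saline 3) to 770 genes and 0 to 1 members for the difference, and 2056 (without DSS thymopentin 3) to 4008 genes and 0 to 1 members for DSS against TNBS under thymopentin.

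Directions turned as follows. The difference for Pdk4 was -0.089 with a pseudocount of 0.1 and -0.38 to 0.83 with 1 library left out, and Cpt1a between the models under thymopentin was -0.012 with array weights and -0.050 to 0.13 with 1 left out. With 1 library left out the TNBS response was -0.18 to 0.014 for Cpt1a, -0.19 to 0.061 for Acadl and -0.017 to 0.21 for Slc16a1. The replicate block ended the Acsm3 calls in TNBS (adjusted p = 0.128) and between the models under thymopentin (0.0636) and changed no other member's call. In DSS, same-numbered libraries correlated at -0.136, 0.0427 and -0.140 and share only a number.

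Scaling moved the median of all genes in DSS by over 0.1: it was 0.12 as deposited and -0.01 with median-ratio rescaling, where 800 genes were called higher and 1019 lower, against 1753 and 593 as deposited; quantile normalization gave 944 and 854. For DSS against TNBS under saline the counts were 3031 higher and 2920 lower with median-ratio rescaling and 2564 and 3398 with quantile normalization, against 2090 and 4341, and under thymopentin 1881 and 1818 with median-ratio rescaling, against 1524 and 2275. For the difference they were 223 and 437 with median-ratio rescaling and 225 and 323 with quantile normalization, against 376 and 334. The causes were not tested. With 3 libraries a group and no total depth, small changes of Ppara and Angptl4 were not detectable.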
